A study of Bos taurus with 2 samples.

Results

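The genes described here are 5 actins and 4 tropomyosins, chosen by name from the 21867 genes of the feature list: ACTA1, ACTA2, ACTC1, ACTB, ACTG1, TPM1, TPM2, TPM3 and TPM4. All 9 were found, each with 1 Ensembl gene, and together they held 1.89% of all UMIs (unique molecular identifiers, each standing for 1 captured transcript). The members were found by gene name alone, and the family was picked with earlier results of these data known.

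Actin is the subunit of the thin filament. ACTB and ACTG1 encode the cytoplasmic actins, which nearly every cell uses for its cortex and stress fibres. ACTA2 encodes the actin typical of smooth muscle, which is also made by many mesenchymal cells in culture. ACTC1 and ACTA1 encode the cardiac and skeletal alpha-actins of the sarcomere, and developing skeletal muscle is known to use the cardiac form early and the skeletal form later. Tropomyosins are coiled-coil dimers that lie along the actin filament and set which proteins may bind it. In striated muscle they act with troponin. TPM1, TPM2 and TPM3 each give muscle and non-muscle isoforms by alternative splicing, whereas TPM4 is mainly known for its non-muscle form.

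The cells came from the longissimus muscle of 1 male Holstein calf, 2 weeks old, and had grown for a week in DMEM with 10% FBS, which is growth medium and not a differentiation medium. The study made 2 single-cell RNA sequencing libraries (replicates 1 and 2) from these cells, with no treatment and no second animal, and the authors divided the cells into 15 clusters. Replicate 1 held 9939 cells with a median of 14626 UMIs and replicate 2 held 9157 cells with a median of 15206 UMIs. Both libraries were prepared from the same pool of cells, each from its own share of it. The spread between them thus comes from library preparation and the sampling of cells, and the p-values below measure that spread only. The clusters were made from the same counts, so a test between clusters gives the size of a difference and not independent evidence that the clusters differ. The libraries shared 27 cell barcodes.

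Clusters 8, 1, 3 and 12 form the sequence that the study drew from progenitors to myocytes, and the markers differed along it. The study also drew another sequence, from cluster 8 through clusters 5 and 4 to cluster 2. The summed level of 6 myocyte markers (MYOG, MYH3, MYL1, NEB, STAC3 and MYMK) was 0.57 ± 0.03, 4.05 ± 0.08, 14.6 ± 0.03 and 54.6 ± 1.00 UMIs per 10000 UMIs in these clusters, in that order (mean ± SD, n = 2 libraries). Cluster 9 had 0.68 ± 0.23 and held the markers of fibro-adipogenic progenitors, with PDGFRA at 1.58 UMIs per 10000 against 0.13 in cluster 1. The study called both clusters 7 and 9 fibro-adipogenic. PDGFRA was 1.48 ± 0.36 in cluster 7, where the summed level of the 6 myocyte markers was 16.9 ± 1.98. Cluster 2 was the group of cycling myoblasts in the study. Of the 3 myoblast markers, MYOD1 was higher there than in cluster 1 (6.72 against 5.18). MYF5 (0.70 against 1.55) and DES (4.02 against 5.01) were lower. MYOD1 also stood at 6.35 in cluster 3 and at 6.75 in cluster 13. Clusters 7, 10, 13, 14 and 15 were shallow, with medians from 647 to 5398.5 UMIs per cell, whereas the median of cluster 12 was 19113 UMIs over 627 cells.

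All levels below are UMIs per 10000 UMIs. A UMI counts a transcript once at its 3′ end, so levels of different genes were compared without dividing by length. The authors counted uniquely mapped reads, so reads that fit several of the related actin genes may be missing or assigned unevenly. How alike the sequences of these genes are was not measured. Splice isoforms of a tropomyosin gene were not separated.

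The 9 genes differed widely in abundance. ACTB ranked 8 among all genes with 1863882 UMIs, and ACTG1 ranked 16 with 1536367 UMIs. Both were found in nearly every cell, 99.9% of cells for ACTB and 99.8% for ACTG1. ACTC1 followed with 612295 UMIs and TPM1 with 565013, then TPM4 with 223637, TPM2 with 198950, ACTA2 with 190636 and TPM3 with 140086. ACTA1 was the least abundant, with 27760 UMIs in 14.7% of cells. Its transcripts were also the most unevenly spread, since cluster 12 held 83.8% of them and 191 cells held 73.8%. The 191 cells with the most ACTB held 3.31% of its UMIs, and those with the most ACTC1 held 14%.

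**Figure D1:**
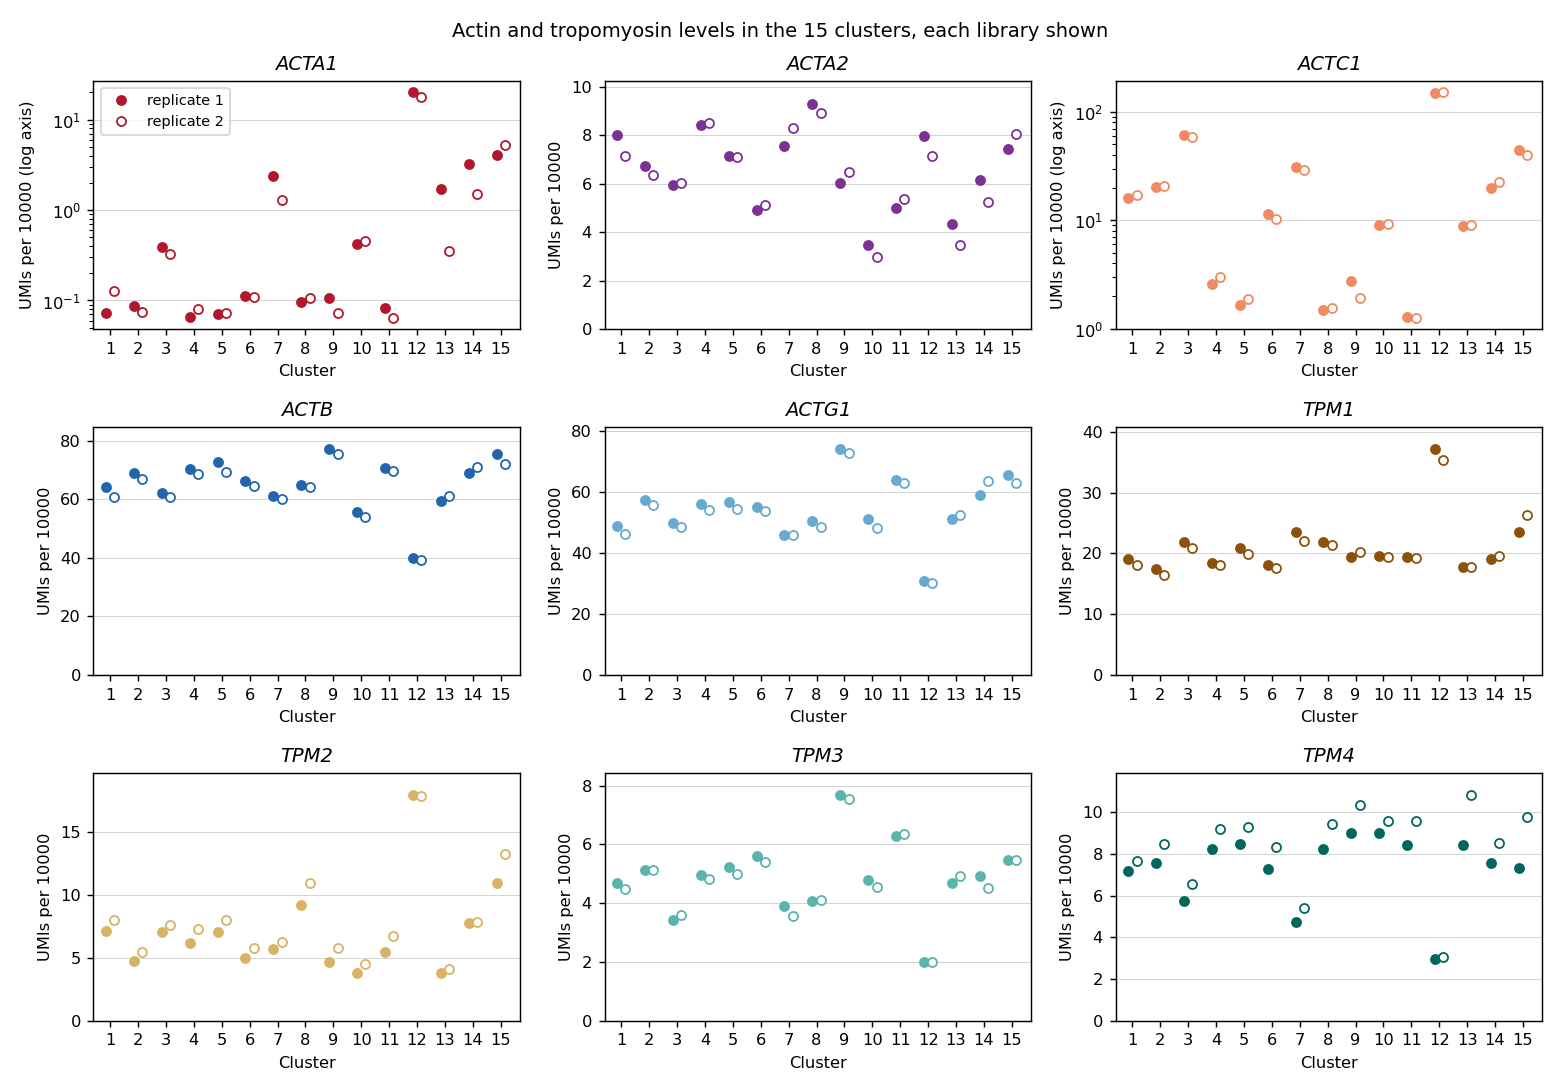
Level of each gene (UMIs per 10000 UMIs, log axis for ACTA1 and ACTC1) in the 15 clusters, with filled points for replicate 1 and open points for replicate 2. ACTA1, ACTC1, TPM1 and TPM2 have their highest points in cluster 12, where ACTB, ACTG1, TPM3 and TPM4 have their lowest.

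Across the clusters the 9 genes fell into 3 patterns. ACTA1, ACTC1, TPM1 and TPM2 had their highest mean level in cluster 12. ACTB, ACTG1, TPM3 and TPM4 had their lowest mean level in cluster 12 and their highest in cluster 9. For ACTB the libraries of shallow cluster 15 (mean 73.9) overlapped those of cluster 9. For TPM4 the libraries of clusters 4, 5, 8, 10, 11, 13 and 15 all overlapped those of cluster 9, with cluster 13 (9.61) nearest in mean. ACTA2 followed neither pattern, with its highest mean in cluster 8, at 9.12 ± 0.28, and its lowest in cluster 10, at 3.22. In cells of at least 2000 UMIs the highest means were instead those of cluster 7 for ACTA2 (9.31 ± 0.37, over 308 of its 1298 cells) and of cluster 13 for TPM4 (9.81 ± 2.23).

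ACTC1 spanned the clusters most steadily. Its level was 148 and 151 in the 2 libraries of cluster 12 and 61.0 and 59.2 in cluster 3. Shallow clusters 15 (42.1 ± 2.96), 7 (30.1 ± 1.58) and 14 (21.2 ± 2.13) came next in mean level. Cluster 2 had 20.2 and 20.6, cluster 1 had 16.2 and 17.1, and cluster 8 had 1.48 and 1.54. The lowest level was in cluster 11, at 1.27 ± 0.02. Of the 14 pairs of neighbouring clusters in its order, 11 did not overlap between libraries, more than for any other gene described here. In cluster 3 the level of ACTC1 (60.1 ± 1.28) was close to that of ACTB (61.5 ± 1.17), and below it in each library (61.0 against 62.3, and 59.2 against 60.7).

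ACTA1 separated cluster 12 from the rest. It stood at 19.999 and 17.5 in the libraries of cluster 12, and at 0.39 and 0.33 in those of cluster 3. In clusters 1, 2, 4, 5, 8, 9 and 11 the mean lay between 0.07 and 0.10, and no neighbours among these 7 clusters were apart between libraries. The mean of ACTA1 was 0.44 to 4.67 in the 5 shallow clusters, and the libraries were far apart in several of them. It was 1.73 in replicate 1 against 0.36 in replicate 2 of cluster 13, and 3.26 against 1.52 in cluster 14.

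The cytoplasmic actins moved together. ACTB was 39.9 and 39.4 in cluster 12 and 77.1 and 75.4 in cluster 9, and ACTG1 was 30.8 and 30.1 in cluster 12 and 74.0 and 72.8 in cluster 9. Both libraries of cluster 12 lay below those of all other clusters for each gene. The ratio of ACTB to ACTG1 stayed within a narrow range, from 1.04 in cluster 9 to 1.32 in cluster 7, and was 1.30 in cluster 12 as well as in cluster 8.

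Among the tropomyosins, TPM1 was the most abundant in every cluster. It was 37.1 and 35.4 in cluster 12 and lay between 17.0 and 25.0 as a mean elsewhere. TPM2 was 17.9 in both libraries of cluster 12, with clusters 15 (12.1) and 8 (10.0) next. TPM3 had 2.00 and 2.01 in cluster 12 and 7.67 and 7.54 in cluster 9. TPM4 had 2.96 and 3.08 in cluster 12 and 9.01 and 10.3 in cluster 9. Replicate 2 had more TPM4 than replicate 1 in every cluster, and 3 of its 14 neighbouring pairs of clusters were apart.

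The make-up of the actin transcripts therefore differed between clusters. The sarcomeric actins ACTA1 and ACTC1 made up 1.29%, 12.5%, 34.1% and 68.4% ± 0.46 of the UMIs of the 5 actins in clusters 8, 1, 3 and 12. ACTB and ACTG1 made up 91.4% in cluster 8 and 28.5% in cluster 12. Most of the sarcomeric share was ACTC1, at 60.8% of the 5 actins in cluster 12 against 7.62% for ACTA1. In shallow clusters 7 and 15 ACTC1 held 20.6% and 21.8% of the 5 actins, against 12.4% in cluster 1. The UMIs of ACTA1 per 100 UMIs of ACTC1 were 0.45 and 0.74 in the 2 libraries of cluster 1. In cluster 3 they were 0.65 and 0.55 (0.44 and 0.37 without the cells called doublets), and in cluster 12 they were 13.5 and 11.6. In cluster 8, where both genes were low, the libraries had 6.50 and 6.95. For the tropomyosins, TPM1 and TPM2 made up 71.1%, 68.6%, 74.8% and 91.5% ± 0.32 of the UMIs of the 4 genes in the same clusters. TPM2 took 30.2% in cluster 12 and 19.0% in cluster 3, while TPM4 took 5.11% and 16%.

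**Figure D2:**
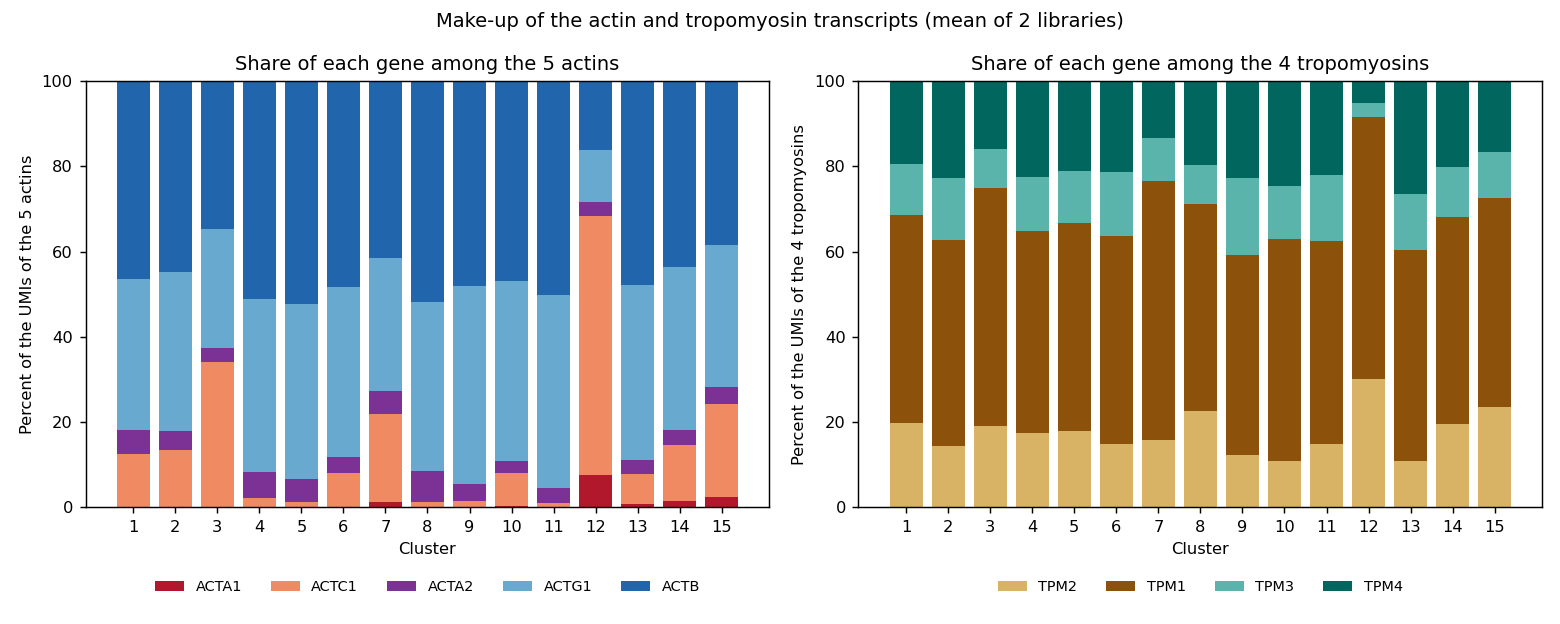
Percent of the UMIs of the 5 actins (left) and of the 4 tropomyosins (right) that each gene held in each cluster, as the mean of 2 libraries. In cluster 12 the 2 sarcomeric actins reached 68.4% of actin UMIs, and TPM1 with TPM2 reached 91.5% of tropomyosin UMIs.

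The last step of the sequence, cluster 12 against cluster 3, changed all 9 genes. ACTA1, ACTC1, TPM1, TPM2 and ACTA2 were higher in cluster 12, and ACTB, ACTG1, TPM3 and TPM4 were lower. Of all 10811 genes tested 33.8% were called, 18.2% as higher and 15.6% as lower (edgeR's quasi-likelihood test, Benjamini-Hochberg adjusted p under 0.05).

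ACTA1 had the largest change of the 9 genes, with a log2 fold change of 5.80 ± 0.12 (SE; adjusted p = 1.6e-07 by edgeR). ACTC1, already abundant in cluster 3, rose by 1.41 ± 0.05 on the log2 scale (adjusted p = 8.5e-07 by edgeR). The change of TPM2 (1.39 ± 0.05) was close to that of ACTC1, and TPM1 rose less (0.86 ± 0.06). ACTA2 rose by 0.44 ± 0.07, from 5.95 and 6.03 in the libraries of cluster 3 to 7.96 and 7.17 in those of cluster 12 (adjusted p = 0.0017 by edgeR). Among the lower genes, TPM4 changed most, with a log2 fold change of -0.93 ± 0.07, followed by TPM3 with -0.72 ± 0.05. ACTG1 and ACTB changed by -0.60 ± 0.05 and -0.54 ± 0.05. All 9 calls held under each of the 7 alternative analyses that had a test and changed the sums or the fit. The value for ACTA1 was 5.07 when the cells were clustered again at a finer resolution without the 9 genes.

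**Figure D3:**
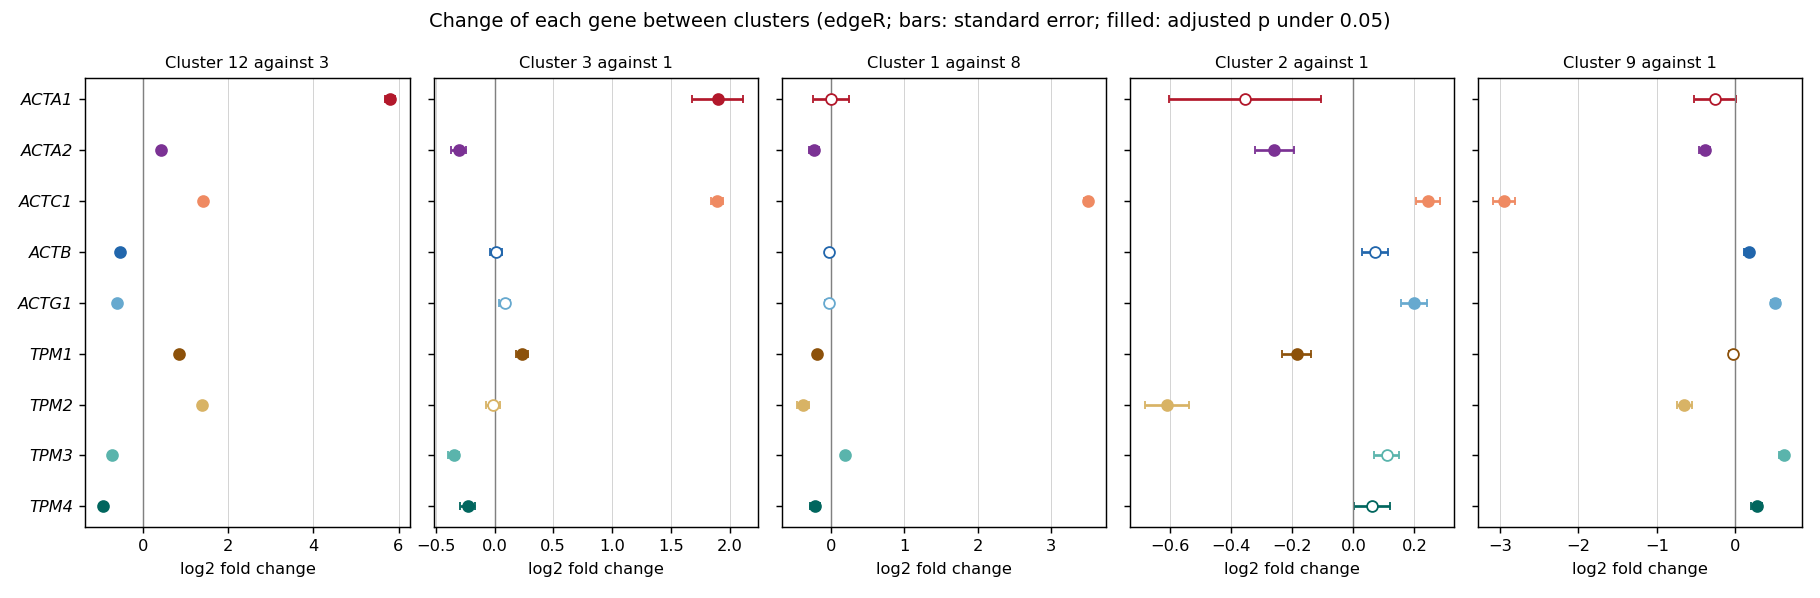
The log2 fold change of each gene (x axis, one scale per panel) in the 5 comparisons between clusters, with bars for the standard error and filled points for adjusted p under 0.05 by edgeR. All 9 points are filled for cluster 12 against 3, while ACTB is filled there and in cluster 9 against 1 only.

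Clusters 3 and 1 differed mainly in the sarcomeric actins. ACTC1 was higher in cluster 3 by 1.89 ± 0.05 on the log2 scale (adjusted p = 3.0e-06 by edgeR), and ACTA1 by 1.90 ± 0.22 (adjusted p = 6.0e-04). TPM1 was also higher, by 0.24 ± 0.05. TPM3 (-0.35 ± 0.05), ACTA2 (-0.30 ± 0.06) and TPM4 (-0.23 ± 0.06) were lower. Thus 3 of the 9 genes were called higher and 3 lower, where 40.2% of 11362 genes were called, 21.1% as higher and 19.1% as lower. ACTB (0.01 ± 0.05), ACTG1 (0.09 ± 0.05) and TPM2 (-0.01 ± 0.06) did not pass the test, although ACTG1 did with the library as a block (adjusted p = 1.1e-04 by edgeR).

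The value for ACTA1 rested on few transcripts in cluster 1, which had 335 UMIs of it over 2493 cells. In cluster 3, 82.2% and 77.5% of the cells of the 2 libraries had no ACTA1 UMI. The 10% of cells with the most ACTA1 there held 88.5% and 78.5% of its UMIs. The log2 fold change of ACTA1 was 2.49 without replicate 2 and 1.38 without replicate 1, and 1.48 without the cells called doublets. It was 6.19 in the planned clustering without the 9 genes, whose match to cluster 3 also took in cells of cluster 12, and 2.76 at the finer resolution. The same planned clustering turned TPM2 to 0.49, and it left ACTA2 without a call, as the finer one did TPM1 and the fit of all 15 clusters did TPM4.

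The first step, cluster 1 against cluster 8, showed a single large change. ACTC1 was 16.2 and 17.1 in cluster 1 against 1.48 and 1.54 in cluster 8, a log2 fold change of 3.50 ± 0.05 (adjusted p = 1.0e-08 by edgeR). ACTA1 did not differ beyond its error (0.00 ± 0.25), with 0.07 and 0.13 in cluster 1 and 0.10 and 0.11 in cluster 8. The other called changes were small. TPM3 rose by 0.20 ± 0.05, and TPM2 (-0.38 ± 0.08), ACTA2 (-0.23 ± 0.07), TPM4 (-0.22 ± 0.07) and TPM1 (-0.18 ± 0.05) fell. ACTB (-0.01 ± 0.05) and ACTG1 (-0.03 ± 0.05) did not pass the test. The calls of 2 higher and 4 lower genes stand beside 34.1% of 11194 genes that were called, 17.2% as higher and 16.9% as lower. When the cells were clustered again without the 9 genes, TPM1 and TPM3 lost their calls at both resolutions (log2 fold changes of -0.05 and 0.06 at the planned one) and TPM2 at the finer one (-0.23). TPM4 lost its call without a filter on low counts and in the fit of all 15 clusters.

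Cycling cluster 2 and cluster 1 differed little in these genes. ACTC1 was higher in cluster 2 by 0.24 ± 0.04 on the log2 scale, and ACTG1 by 0.20 ± 0.04 (adjusted p = 0.0024 and 0.0079 by edgeR). TPM2 was lower by more than any other of the 9 genes, at 4.78 and 5.45 in cluster 2 against 7.12 and 7.96 in cluster 1 (log2 fold change -0.61 ± 0.07, adjusted p = 5.8e-04 by edgeR). ACTA2 (-0.26 ± 0.06) and TPM1 (-0.19 ± 0.05) were lower as well. With 2 genes called higher and 3 lower, the share of all 11494 genes that were called was 41.9%, with 22.7% higher and 19.3% lower. The values of ACTB (0.07 ± 0.04), TPM3 (0.11 ± 0.04), TPM4 (0.06 ± 0.06) and ACTA1 (-0.36 ± 0.25) did not pass the test. With the library as a block all 9 genes were called, 5 higher and 4 lower, with ACTA1 at -0.35. Without a filter on low counts ACTA2 and TPM1 were not called, and in the fit of all 15 clusters ACTC1 was not. In the planned clustering without the 9 genes TPM1 was not called and ACTA1 was higher by 2.68. The match to cluster 2 in that clustering had 1184 cells, of which 715 were among the 2119 cells of cluster 2.

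Cluster 9 differed from cluster 1 in 7 of the 9 genes, beside 63.2% of the 11549 genes tested. ACTC1 was lower in cluster 9, at 2.75 and 1.92 against 16.2 and 17.1 (log2 fold change -2.95 ± 0.14, adjusted p = 7.4e-07 by edgeR). TPM2 (-0.65 ± 0.09) and ACTA2 (-0.39 ± 0.07) were lower too. The genes with higher levels were TPM3 (0.61 ± 0.05), ACTG1 (0.51 ± 0.05), TPM4 (0.27 ± 0.07) and ACTB (0.17 ± 0.06). TPM1 (-0.03 ± 0.06) and ACTA1 (-0.26 ± 0.27) did not pass the test. The 4 higher and 3 lower calls stand beside 31.3% and 31.9% of all genes. In cluster 9, 14.4% of the cells were called doublets, against 6.26% in cluster 1. The automatic thresholds marked 1 cell in all, so these calls are the highest scores up to a set share of 8% of a library. Without doublets the level of ACTC1 in cluster 9 was 1.13 ± 0.06 in place of 2.34 ± 0.59, and the log2 fold change was -4.00. It was -4.48 in the planned clustering without the 9 genes.

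The order in which the genes moved was also followed without the borders between clusters 8, 1, 3 and 12. The 6338 cells of clusters 8, 1, 3 and 12 with at least 5000 UMIs were placed in 10 bins of nearly equal size by the summed share of 24 muscle genes, such as myosin, troponin and acetylcholine receptor genes, and none of the 9 genes was used. Bin 1 held 88.3% cells of cluster 8, and bin 10 held 82.0% cells of cluster 12. The bins are ranges of a score and not cell types, and no test was run over them. The score counts TNNC2 and MYOG, which were among the 3 genes that correlated best with ACTC1 over the 15 clusters (0.98 and 0.97). TNNI2, also counted, was among those of ACTA1 (0.94). The levels of ACTC1 and ACTA1 along the score are thus not independent of how the score was made.

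ACTC1 was higher in each bin than in the one before. Its mean level was 1.28 in bin 1, 5.49 in bin 3, 16.5 in bin 5, 42.3 in bin 7, 87.2 in bin 9 and 150 in bin 10. In bin 8 it was level with ACTB, at 62.5 and 59.97 in the 2 libraries against 62.1 and 59.7. ACTA1 stayed between 0.08 and 0.10 in bins 1 to 6, and was then 0.18, 0.27, 1.71 and 17.7 in bins 7 to 10. Bin 10 thus held 86.7% of the sum of the ACTA1 levels over the bins, against 37.1% for ACTC1.

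TPM1 and TPM2 were lowest in the middle of the score. TPM2 was 9.85 in bin 1, 6.74 in bin 5 and 17.9 in bin 10, and TPM1 was 21.5 in bin 1, 18.8 in bin 4 and 35.9 in bin 10. ACTA2 was lowest later, at 6.26 in bin 8, and unlike TPM1 and TPM2 it was lower in bin 10 (7.91) than in bin 1 (9.33). TPM3 went the other way and was highest in bin 4, at 4.97, with 4.10 in bin 1 and 2.00 in bin 10. TPM4 was lower in each bin than in the one before, from 9.19 to 3.23. ACTB was 65.7 in bin 1, 60.9 in bin 8 and 41.1 in bin 10, and ACTG1 was 51.1, 47.9 and 31.3.

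**Figure D4:**
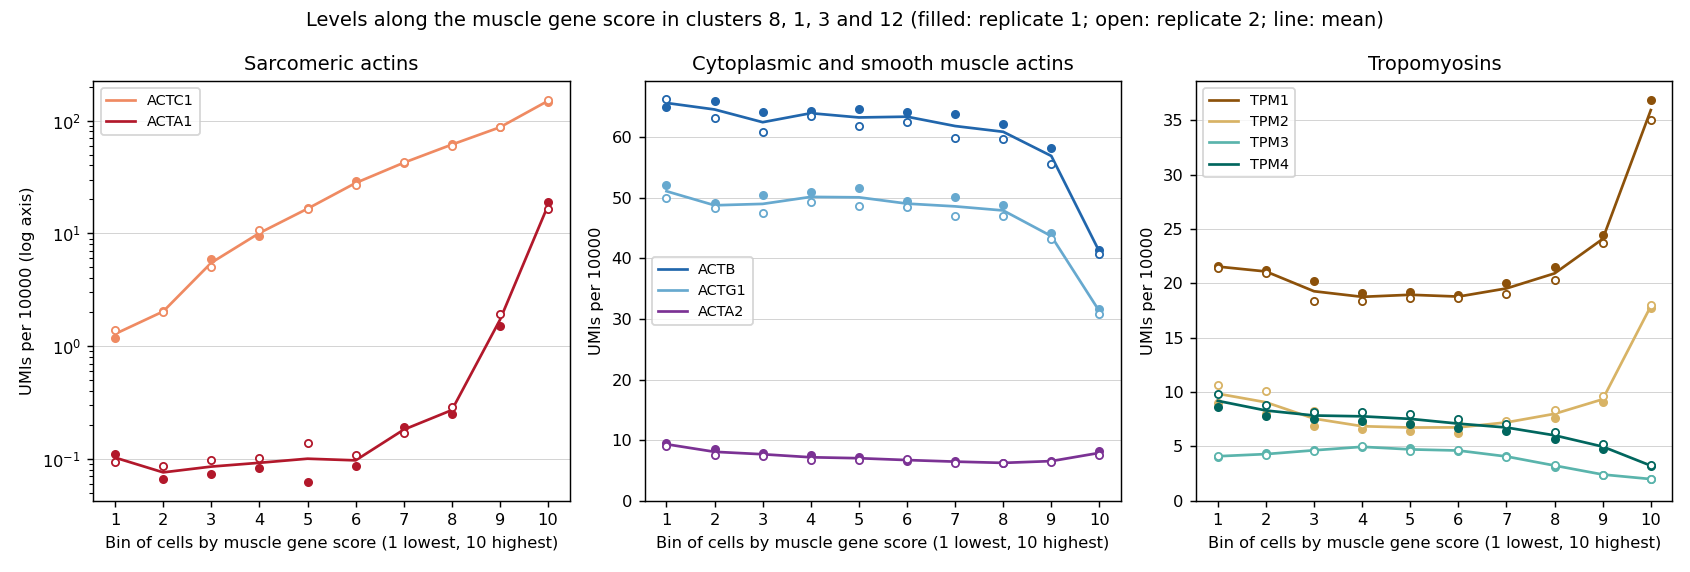
Level of each gene (UMIs per 10000 UMIs, log axis in the left panel) in 10 bins of cells ordered by a score of 24 other muscle genes, with filled points for replicate 1, open points for replicate 2 and lines for the mean. ACTC1 climbs from bin 1 on, while ACTA1 stays near 0.10 up to bin 6 and reaches 17.7 in bin 10.

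Within bin 10 the difference continued. Cut into 5 parts of 126 or 127 cells, ACTA1 was 5.47 and 3.67 in the libraries of the first part and 64.4 and 48.5 in those of the last. The mean of ACTA1 over the 5 parts was 4.57, 3.89, 8.07, 14.9 and 56.4, so the rise was not steady. ACTC1 was 110 and 112 in the first part and 201 and 207 in the last. ACTB was 52.0 and 49.2 in the first part and 23.9 and 28.1 in the last, and TPM2 was 11.5 and 12.2 against 30.8 and 29.7. The level of ACTA2 was 7.42 and 6.97 in the first part and 11.5 and 10.2 in the last. TPM3, unlike TPM4, was not lower in the last part, with 2.05 and 1.79 against 2.61 and 2.46.

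Single cells of cluster 12 differed far more in ACTA1 than in ACTC1. Of its 315 cells in replicate 1, 69 had no ACTA1 UMI, 128 had 10 to 99 and 38 had 100 or more, up to 500. In replicate 2 the counts were 68, 119 and 32 of 312 cells. The 10% of cells with the most ACTA1 held 56.0% and 54.5% of its UMIs in the 2 libraries, against 18.3% and 19.6% for ACTC1. Every cell of cluster 12 had an ACTC1 UMI, and 2 cells in each library had more ACTA1 than ACTC1. Among all cells, 385 had 10 or more ACTA1 UMIs, of which 317 (82.3%) were in cluster 12 and 24 in cluster 3. Shallow clusters 7 and 14 held 12 and 11 of them, and this cut was not adjusted for depth.

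Deeper cells have more chances to show a UMI, so each cell was thinned to 2000 UMIs, and shallower cells were left out. The share of cells with an ACTA1 UMI was then 56.5% and 55.1% in cluster 12, where it had been 78.1% and 78.2% before thinning. It was 4.93% and 5.55% in cluster 3. In shallow cluster 7 it was higher than in cluster 3, at 17.0% and 7.69%, over the 100 and 208 cells kept. Clusters 14 (10.2% and 5.26%), 13 (4.95% and 6.58%) and 10 (3.50% and 4.84%) were nearer to cluster 3. Cluster 9, with its fibro-adipogenic markers, was taken as the comparison for cells without sarcomeric actin, although 14.4% of its cells were called doublets and MYOG and MYOD1 stood at 0.26 and 0.57 UMIs per 10000 there. Its share was 1.88% and 1.42% (15.2% and 17.0% before thinning, at a median of 23011 UMIs per cell). The thinned shares of cluster 1, 1.54% and 2.50%, were near those of cluster 9. For ACTC1 the thinned share was 100% in cluster 12 and 95.6% and 95.5% in cluster 3. Cluster 7 had 68.0% and 70.2% in the cells kept. Cluster 1 had 62.5% and 61.9%, cluster 8 had 26.1% and 24.4%, and cluster 9 had 22.9% and 22.3%. The order of the last pair in level depended on whether the cells called doublets were kept. With them cluster 8 had less ACTC1 than cluster 9 (1.48 and 1.54 against 2.75 and 1.92), and without them it had more (1.40 and 1.54 against 1.09 and 1.17). No cell of cluster 15 reached 2000 UMIs.

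**Figure D5:**
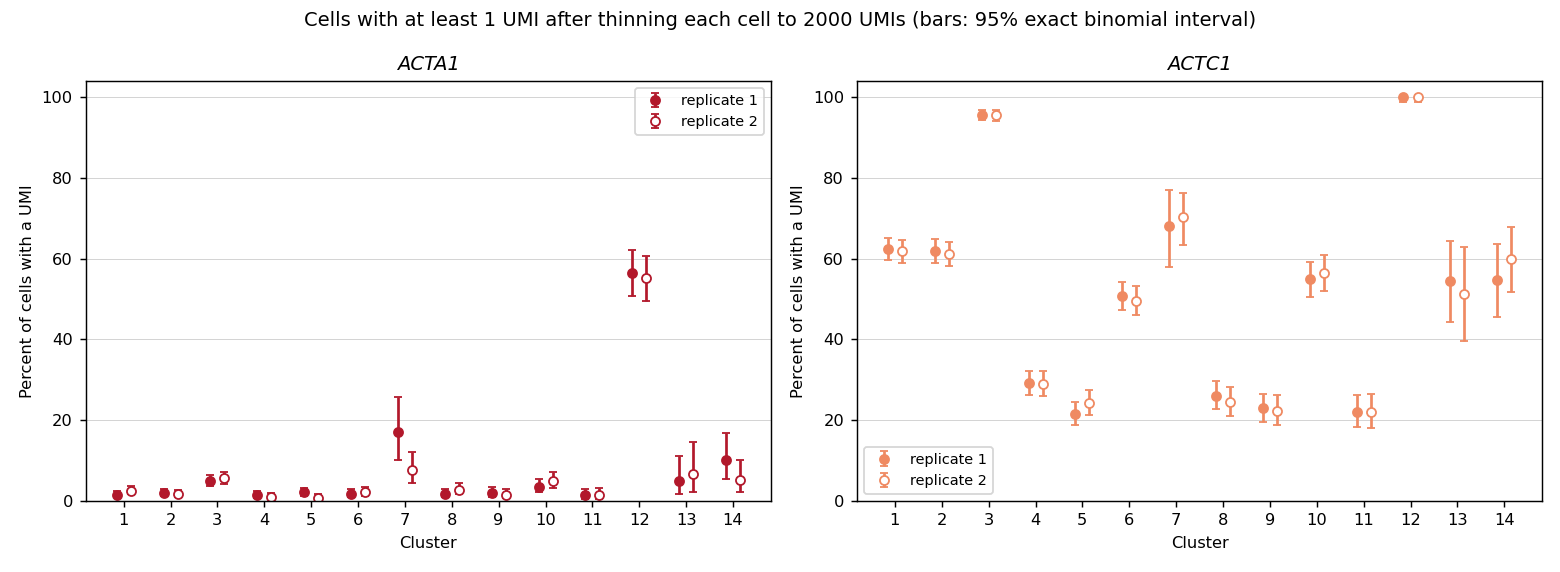
Percent of cells with at least 1 UMI of ACTA1 (left) and ACTC1 (right) after thinning to 2000 UMIs, by cluster and library, with 95% exact binomial intervals that cover counting error only. For ACTA1 cluster 12 stands at 56.5% and 55.1%, and for ACTC1 clusters 12 and 3 stand above 95%.

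The levels of the 9 genes were also compared from cell to cell within cluster 12, over 300 and 297 cells thinned to 10000 UMIs. These Spearman correlations describe cells of 1 animal that share a library, and levels that are shares of 1 total tend to oppose each other. ACTB and ACTG1 were the most alike, at 0.72 and 0.70 in the 2 libraries. TPM2 went with both sarcomeric actins, at 0.54 and 0.59 with ACTA1 and 0.53 and 0.52 with ACTC1. TPM1 and TPM2 had 0.56 and 0.55. ACTC1 and ACTA1 themselves had 0.37 and 0.37. ACTB went against ACTA1 (-0.41 and -0.43) and against ACTC1 (-0.42 and -0.33). ACTA2 had 0.34 and 0.34 with ACTA1, and 0.12 and 0.07 with ACTB. TPM4 had 0.30 and 0.35 with ACTB, and TPM3 had -0.10 and -0.06.

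ACTA2 was found in 88.9% of cells. Of the 4 smooth muscle markers, MYH11, the smooth muscle myosin heavy chain, had 192 UMIs in all cells, and MYOCD, the coactivator of the smooth muscle programme, had 2. The other markers of that list were present, with 13423 UMIs of SMTN and 4500 of ACTG2, the second smooth muscle actin. Of the 3 pericyte markers, RGS5 had 8 UMIs and MCAM had 102, whereas NOTCH3 had 10356. Its level was 0.64 ± 0.02 in cluster 8 and 1.69 ± 0.12 in cluster 7, where that of SMTN was 1.15 ± 0.09. The stress fibre genes CNN1, TAGLN and CALD1, which smooth muscle also makes, had 8484, 5642 and 210084 UMIs. SOX10 and FOXD3, which mark glial cells, had 0. The level of the 4 smooth muscle markers together was highest in shallow cluster 7, at 1.54 ± 0.14, where ACTA2 was 7.92 ± 0.53. It was 0.63 ± 0.10 in cluster 8, where the mean of ACTA2 over all cells was highest. In cluster 9 it was 0.92 ± 0.12, where ACTA2 was 6.27 ± 0.30. The part of other cell types in the level of ACTA2 was not tested. ACTBL2, a gene close to ACTB, had 0 UMIs.

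The partners of the sarcomeric thin filament differed in the direction of ACTC1 in 4 of the 5 comparisons, the exception being cluster 2 against cluster 1. Of 14 genes listed (the troponins, nebulin, tropomodulins, leiomodins and their stabilisers KLHL40 and KLHL41), all 13 tested rose from cluster 3 to cluster 12, with a median log2 fold change of 2.81 against -0.02 over all genes and beside 18.2% of all genes called higher. Genes that passed the low-count filter only through the cluster where they are high had to differ, so these counts and medians are a description. LMOD2 had 152 UMIs in all cells and was near 0 in cluster 3 (0.00087, against 0.098 in cluster 12), so no fold is given. LMOD3, which nucleates thin filaments, had a log2 fold change of 4.97 ± 0.15. In cluster 3 against cluster 1, 11 of 12 tested were higher (median 1.59, beside 21.1% of all genes), led by TNNI2 (2.43 ± 0.10), a troponin inhibitory subunit, and by LMOD3 (2.29 ± 0.26). In cluster 1 against cluster 8, 9 of 10 were higher (median 2.61, beside 17.2%), with NEB, the nebulin ruler of the thin filament, at 3.04 ± 0.06 and KLHL40 at 3.01 ± 0.38. In cluster 9 against cluster 1, 10 of 11 were lower (median -2.74, beside 31.9%), with NEB at -3.61 ± 0.22 and KLHL41 at -3.40 ± 0.15. In cluster 2 against cluster 1, 4 of 12 were lower, beside 19.3% of all genes, and none was higher, beside 22.7%, with TMOD1 at -0.85 ± 0.10 and TNNT2 at -0.75 ± 0.24. For these lists no set test was run.

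The genes of actin turnover and capping moved in both directions. In cluster 12 against cluster 3, 5 of 14 were higher and 3 lower, with a median of 0.03, beside 18.2% and 15.6% of all genes. Those higher included CAP2 (0.91 ± 0.06), the form of the cyclase-associated protein enriched in striated muscle, and CFL2 (0.70 ± 0.06), the muscle cofilin. CAP1, the form used in most other cells, was lower (-0.98 ± 0.06), as was TWF1 (-1.23 ± 0.15), which sequesters actin monomers. CAP2 and CFL2 were also higher in cluster 3 than in cluster 1 (1.29 ± 0.06 and 0.35 ± 0.04) and in cluster 1 than in cluster 8 (1.66 ± 0.09 and 0.61 ± 0.05). In cluster 3 against cluster 1, 3 of 14 were higher and 6 lower, beside 21.1% and 19.1% of all genes. In cluster 1 against cluster 8, 3 were higher and 4 lower, beside 17.2% and 16.9%. Gelsolin, GSN, which severs actin filaments, was lower in both comparisons (-0.92 ± 0.08 and -0.40 ± 0.05), as was TWF1 in the former (-0.59 ± 0.08) and TWF2 in the latter (-0.50 ± 0.06). In cluster 9 against cluster 1, 5 were higher and 7 lower (beside 31.3% and 31.9%), with CAP2 at -3.10 ± 0.14, CFL2 at -1.49 ± 0.07, PFN2, a profilin, at 1.12 ± 0.07 and TWF1 at 0.48 ± 0.08. In cluster 2 against cluster 1, 2 were higher and 6 lower (beside 22.7% and 19.3%), among them the capping protein subunit CAPZA2 at 0.23 ± 0.04 and GSN at -0.77 ± 0.05.

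Among the 13 genes found of the actin nucleation list, of which ARPC1B stands for 2 Ensembl genes, 2 of 14 tested rose from cluster 3 to cluster 12 and 3 fell, beside 18.2% and 15.6% of all genes. FHOD3, the formin of striated muscle, rose by 1.66 ± 0.07, and FHOD1 by 0.58 ± 0.14. DIAPH3, another formin, fell by 1.14 on the log2 scale (SE 0.09), and ARPC5 of the Arp2/3 complex fell by 0.35 (SE 0.06). FHOD3 was also higher in cluster 3 than in cluster 1 (0.61 ± 0.08), where 3 were higher and 3 lower (beside 21.1% and 19.1%), and FHOD1 was lower there (-0.74 ± 0.11). Cluster 1 against cluster 8 had 1 higher and 5 lower (beside 17.2% and 16.9%), with DIAPH3 at 0.32 ± 0.08 and FHOD1 at -1.14 ± 0.10. Cluster 2 against cluster 1 had 1 higher, DIAPH3 at 2.14 ± 0.05, and 3 lower, beside 22.7% and 19.3%. In cluster 9 against cluster 1, 8 were higher and 3 lower (beside 31.3% and 31.9%), with FHOD1 at 1.88 ± 0.09 and FHOD3 at -1.71 ± 0.11.

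Of 21 stress fibre genes tested, 10 fell and 5 rose from cluster 3 to cluster 12, beside 15.6% and 18.2% of all genes. From cluster 1 to cluster 3, 11 fell and 2 rose, beside 19.1% and 21.1%, and from cluster 8 to cluster 1, 13 fell and 4 rose, beside 16.9% and 17.2%. The medians were -0.25, -0.17 and -0.26. TAGLN2, the non-muscle transgelin, was lower in cluster 12 (-1.13 ± 0.08) and in cluster 3 (-2.13 ± 0.05). MYH9, a heavy chain of non-muscle myosin, was lower in cluster 12 (-0.86 ± 0.06), and the calponin CNN1 and the alpha-actinin ACTN1 were lower in cluster 1 (-1.36 ± 0.11 and -0.91 ± 0.07). FLNC, the filamin of striated muscle, was higher at each of the 3 steps (0.55 ± 0.05, 0.55 ± 0.05 and 1.08 ± 0.06). Cluster 9 against cluster 1 had 7 higher, led by CNN1 (2.04 ± 0.08) and LIMA1 (1.35 ± 0.05), and 12 lower, led by the light chain MYL9 (-1.86 ± 0.13), beside 31.3% and 31.9% of all genes. Cluster 2 against cluster 1 had 5 higher and 9 lower (beside 22.7% and 19.3%), with ACTN4 at 0.21 ± 0.04 and CALD1, caldesmon, at -0.57 ± 0.05. SRF, the transcription factor known to drive many actin genes, was higher at each of the 3 steps (0.36 ± 0.10, 0.37 ± 0.07 and 0.32 ± 0.09) and in cluster 2 (0.23 ± 0.07). Of its cofactors, MRTFB was lower in cluster 1 than in cluster 8 (-0.44 ± 0.11). Of the 4 genes found from the list of SRF and its cofactors, 3 were tested.

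The genes whose levels over the 15 clusters were most like those of each of the 9 genes were sought among 2702 genes, by the Pearson correlation of log2(level + 0.01). The points share libraries, and the shallow clusters are among them, so these values are a description. ACTC1 was closest to TNNC2 (0.98), PDLIM3 (0.97) and MYOG (0.97). ACTA1 was closest to SMIM5 (0.96), MYOZ2 (0.94) and TNNI2 (0.94), the last 2 of them sarcomere genes. ACTB and ACTG1 both had TMOD3, the tropomodulin of non-muscle cells, among their closest 3 (0.90 and 0.89), as did TPM3 (0.93). SRSF9 was closest to ACTB (0.94), YWHAQ to ACTG1 (0.92) and CNIH4 to TPM3 (0.94). For TPM1 the closest gene was MAP2K2 (0.94), for TPM2 SYF2 (0.90), for TPM4 PTMS (0.97) and for ACTA2 ACTR10 (0.88). Of the 27 closest genes named in this way, 3 for each gene, 4 remained when the 10 clusters with a median of at least 10000 UMIs were used, namely SMIM5 for ACTA1, TNNC2 for ACTC1, YWHAQ for ACTG1 and ST6GALNAC4 for TPM1. TMOD3 was not among the closest 3 of any of them there. Among the 9 genes themselves ACTB and ACTG1 had 0.94 over 15 clusters and 0.96 over those 10, ACTG1 and TPM3 had 0.94 and 0.97, and ACTA1 and ACTC1 had 0.76 and 0.75.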

How the data were processed

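UMI counts for 21867 genes in 19096 cells were used as deposited. The authors aligned reads to ARS-UCD1.2 and counted UMIs with Cell Ranger 3.0.2, kept uniquely mapped reads, and combined the libraries after equalising mapped reads per cell. The authors also deposited an average per gene and cluster, scaled to a common total (a score here), with fold changes and p-values of their own comparisons, which were not used. The counts and these averages together fixed the cluster of all 19096 cells, since the averages convert to whole numbers of UMIs, and 0 of 252240 pairs of gene and cluster differed. The library of a cell was read from the number that ends its barcode.

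UMIs were summed per cluster and library. Clusters were compared as 2 sums against 2 with edgeR 4.0.16 in R 4.3.3 (quasi-likelihood test, TMM, filterByExpr, Benjamini-Hochberg adjustment over all genes tested, called at adjusted p under 0.05). The SE of a log2 fold change is its size over the square root of the F statistic. Sums of the same library pair up, since the log2 ratios of replicate 1 to replicate 2 over genes correlated by 0.396 to 0.518 between the clusters compared. The fit without a block is the one reported, and a block is an alternative. Levels are UMIs per 10000 UMIs, and clusters were called apart where the values of their libraries did not overlap. No filter on cells was applied. Doublets were kept. Scrublet's automatic thresholds marked 1 cell, so the cells with the highest scores, up to 8% of a library (1397 cells or 7.32% in all), were left out as an alternative. Other alternatives were DESeq2 1.42.0, no TMM, no low-count filter, 1 fit of all 15 clusters, and cells of at least 2000 UMIs. As further alternatives, each library was taken alone, and the cells were clustered again without the 9 genes. That clustering was Louvain by igraph 0.11.9 on principal components from scanpy 1.11.5. Tests were checked on simulated counts drawn without a library effect, so that check does not cover the pairing of sums of the same library. Intervals cover counting error only.

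All 9 genes were reported in every comparison. From each list, up to 2 genes with the largest called change in each direction that agreed in both libraries could be named, and for likeness the 3 closest genes. The 9 genes, the lists and the comparisons were chosen with earlier results of these data known.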

Additional observations from a re-analysis of the deposited data

How the results depend on the processing

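Of 351 values for single genes in the 5 comparisons under the alternatives, 328 kept direction and side of the threshold, 7 gained and 14 lost the call, and 2 turned, both in the planned clustering without the 9 genes: TPM2 in cluster 3 against cluster 1 (0.49) and ACTA1 in cluster 2 against cluster 1 (2.68). That clustering matched 11 clusters and not cluster 12, so it gave no value for cluster 12 against cluster 3. Its match to cluster 2 shared 715 of the 2119 cells of that cluster, so the value for ACTA1 compares partly different cells. The filter of 2000 UMIs left out 0 cells of the clusters compared and is not counted. The finer resolution and the doublet threshold were chosen after seeing the data. The number of the 9 genes called in cluster 1 against cluster 8 became 1 higher in both clusterings and 2 lower in the finer one. In cluster 2 against cluster 1 it became 4 higher without TMM, 5 with the replicate block and 1 in the fit of all 15 clusters, and 1 lower without a filter. DESeq2 called fewer genes, 845 lower in cluster 12 against 3, 1252 lower in cluster 3 against 1, and 1215 higher and 1183 lower in cluster 1 against 8. Without TMM 38.0% of the calls in cluster 12 against 3 were higher, against 53.8%, and the median of all genes in cluster 9 against 1 moved from -0.03 to 0.09. The block gained calls only for ACTG1 in cluster 3 against 1 and for ACTA1, ACTB, TPM3 and TPM4 in cluster 2 against 1. The sarcomeric share of actin in cluster 12 was 68.9% without doublets and 69.0% as a mean over cells. The share of cells of cluster 12 with an ACTA1 UMI was 55.8% after thinning, and 4 of the 27 closest genes remained with deep clusters. The causes were not tested. ACTC1 in cluster 1 against 8 was 3.50 with either library alone. One animal and 2 libraries of the same pool of cells leave differences between animals unmeasured, and ACTA1 outside cluster 12 rests on low counts.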

Other observations

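In shallow clusters 7, 13, 14 and 15, ACTA1 relative to ACTC1 differed between the libraries, whereas in shallow cluster 10 they were close (4.67 and 4.95). Cluster 13 had 17 and 10 cells with an ACTA1 UMI in the 2 libraries. The UMIs of ACTA1 per 100 UMIs of ACTC1 were 19.4 in replicate 1 and 3.94 in replicate 2 of cluster 13, 16.6 and 6.67 in cluster 14, 7.57 and 4.41 in cluster 7, and 9.26 and 13.1 in cluster 15. In the deep clusters with little ACTC1 the libraries were closer, with 6.50 and 6.95 in cluster 8, 4.29 and 3.86 in cluster 5, and 3.86 and 3.77 in cluster 9. Without doublets the values of cluster 9 were 6.47 and 6.62. In cells of at least 2000 UMIs, ACTA1 was 4.54 and 1.52 UMIs per 10000 in the libraries of cluster 7, against 2.36 and 1.28 over all its cells.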
